A study of Mus musculus with 15 samples.

Results

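The annexins are a family of calcium-dependent phospholipid-binding proteins, and their transcripts were followed in ventricular cardiomyocytes of wild-type C57BL/6 mice at 3 ages. The genes were taken by symbol from a list of 8 (Anxa1, Anxa2, Anxa3, Anxa4, Anxa5, Anxa6, Anxa7 and Anxa11), drawn up with earlier results of these data known. Of the 8, 7 are described here among the 9666 genes of the RPKM table (reads per kilobase of gene, scaled to library size). Anxa1 is not analysed here, nor are Anxa8, Anxa9, Anxa10 and Anxa13. The libraries came from neonatal hearts at postnatal day 1 (P1, n = 4) and postnatal day 3 (P3, n = 4) and from hearts of adults aged 8 to 12 weeks (n = 7). All animals were untreated as far as the labels say, total RNA was isolated with TRIzol, and the study set the ages side by side in a search for genes that bear on regeneration of heart muscle.

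Annexins share a folded core that lies flat on negatively charged membranes once calcium binds, and a variable N-terminal tail that recruits partners such as S100 proteins. When a muscle cell membrane is torn, calcium that enters draws several annexins to the wound, where they help to close it. Annexin A2 forms a complex with S100A10, annexin A5 binds phosphatidylserine and assembles into flat arrays, annexin A6 carries a duplicated core and is known as an abundant annexin of the heart, annexin A7 (synexin) drives membrane fusion, and annexin A11 has a long tail through which it joins RNA granules to lysosomes.

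The 7 genes are protein coding in the GENCODE annotation of mm10 and are scattered over the genome. Anxa2 lies at chr9:69453620-69491795 (plus strand), Anxa3 at chr5:96793339-96845966 (plus), Anxa4 at chr6:86736840-86793584 (minus) and Anxa5 at chr3:36448923-36475894 (minus). Anxa6 lies at chr11:54979108-55033445 (minus), Anxa7 at chr14:20455260-20480133 (minus) and Anxa11 at chr14:25842156-25886804 (plus). Genes on the opposite strand overlap Anxa2, Anxa4 and Anxa11, and as the strand of counting is unknown their reads cannot be told apart from those of the annexins.

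Promoter sequences were held for 5 of the 7 genes in the RefSeq table (GRCm38.p6). The 250 bases before the annotated start are shown for Anxa2 and Anxa5, with deep falls in adult libraries, and for Anxa11, which was not called. Each is written 5' to 3' on the gene's own strand, and capitals mark matches to 5 motifs searched on both strands. The GC box was searched as GGGCGG, the binding site of Sp-type factors. The TATA box was searched as TATAAA, at which the basal machinery can assemble. The AP-1 site was searched as TGACTCA, bound by Fos and Jun proteins. The CCAAT box and the TEAD motif, spelled GGAATG, had no match in these 3 windows, and no matches overlapped.
Anxa2, chr9:69453433-69453682, plus strand: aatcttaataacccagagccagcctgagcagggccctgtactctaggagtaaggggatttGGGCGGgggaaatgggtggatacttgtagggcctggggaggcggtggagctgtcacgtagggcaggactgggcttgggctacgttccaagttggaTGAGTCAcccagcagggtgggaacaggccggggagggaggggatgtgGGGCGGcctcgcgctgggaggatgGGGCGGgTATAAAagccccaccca
Anxa5, chr3:36475888-36476137, minus strand: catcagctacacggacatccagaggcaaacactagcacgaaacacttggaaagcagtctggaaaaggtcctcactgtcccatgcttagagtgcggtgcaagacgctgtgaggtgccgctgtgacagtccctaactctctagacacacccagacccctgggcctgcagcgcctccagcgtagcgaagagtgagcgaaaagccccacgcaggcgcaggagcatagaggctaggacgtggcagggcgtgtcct
Anxa11, chr14:25841905-25842154, plus strand: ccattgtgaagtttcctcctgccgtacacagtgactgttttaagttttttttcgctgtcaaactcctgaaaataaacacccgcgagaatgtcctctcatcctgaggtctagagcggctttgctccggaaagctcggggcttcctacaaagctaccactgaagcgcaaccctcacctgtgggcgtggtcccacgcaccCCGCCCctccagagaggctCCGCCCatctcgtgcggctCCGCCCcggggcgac

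The Anxa2 window held 3 GC boxes, 1 TATA box and 1 AP-1 site. The Anxa11 window held 3 GC boxes, and the Anxa5 window held none of the 5 motifs. Over 32851 mouse promoter windows of the same length, a GC box was found in 32.7%, a CCAAT box in 33.8%, a TATA box in 12.4%, an AP-1 site in 4.46% and a TEAD motif in 12.6%. G and C made up 62.4% of the Anxa2 window, 58.8% of the Anxa5 window and 58.0% of the Anxa11 window, against a median of 52.4% over all windows. The Anxa2, Anxa5 and Anxa11 windows held 9, 13 and 17 CpG dinucleotides, against a median of 6. The GENCODE gene models of Anxa2 and Anxa5 begin slightly inside these windows, upstream of the RefSeq start. A match describes letters only and is no evidence of binding.

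The libraries differed in depth and in cell type markers. The RPKM denominator was estimated, in units of 1e+06 reads, at 10.5 to 11.2 in P1, 9.45 to 13.6 in P3, 6.27 to 11.1 in adult replicates 1 to 4 and 16.8 to 17.1 in adult replicates 5 to 7. The summed RPKM of 11 cardiomyocyte markers ran from 10760 to 20580 in adult libraries and from 5306 to 11750 in P1. In P3 it was 3960 in replicate 1 but 979, 588 and 506 in replicates 2 to 4, so those 3 libraries go against their cardiomyocyte label. Of the 11 markers, Nppa alone was lower in adults, with log2 differences of -6.28 in adult against P1 and -1.83 in adult against P3. The others lay between 0.04 (Actn2) and 3.07 (Pln) against P1, and between 1.89 (Ttn) and 4.68 (Actc1) against P3. Of 15 endothelial markers 10 were analysed, with sums of 216 to 489 RPKM in P1, 728 to 1713 RPKM in P3 and 3.22 to 221 RPKM in adult libraries. Of 10 fibroblast markers 5 were analysed, with sums of 164 to 1408 RPKM in P1, where replicate 1 was highest, 379 to 810 RPKM in P3 and 1.13 to 78.3 RPKM in adult libraries. Of 9 mural markers 5 were analysed, at 325 to 888 RPKM in P1, 455 to 749 RPKM in P3 and 171 to 459 RPKM in adult libraries. These 5 disagreed in adult against P3, with log2 differences of 2.99 for Des, 0.60 for Rgs5 and 0.29 for Abcc9. Acta2 differed by -4.45 and Myh11 by -1.14, so the mural sum mixes genes that moved in opposite directions. No analysed marker was at 0 in any library, but nor was any other listed gene, as the lowest RPKM of all was 0.1. The lack of 0 values therefore tells nothing about which cells were present. Epicardial, immune, erythroid, and Schwann and neuronal markers were not analysed here. The median gene also moved, by -1.36 on the log2(RPKM + 0.5) scale in adult against P1, by -1.48 in adult against P3 and by 0.09 in P3 against P1, and a difference below is read against that shift. In these bulk libraries, fewer cells of a type and less RNA per cell cannot be told apart.

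Annexin transcripts together were far lower in adult libraries. The 7 genes summed to 820 ± 258 RPKM at P1 (SD, n = 4), 1096 ± 155 RPKM at P3 (SD, n = 4) and 86.5 ± 38.4 RPKM in adults (SD, n = 7), and the highest adult sum, 162 RPKM, lay below the lowest neonatal sum, 587 RPKM. In adult against P1, 6 of 7 annexins were called lower by limma (adjusted p under 0.05 and an absolute log2 difference of at least 1) and 0 higher as deposited, but 3 lower and 1 higher after quantile normalization or median-of-ratios scaling. Of all 9389 tested genes, 62.7% were called lower and 4.32% higher as deposited, 17.8% and 17.9% after quantile normalization, and 16.6% and 19.8% after median-of-ratios scaling. At equal RPKM sums, with or without the 100 highest genes, 5 annexins were called lower and 0 higher against P1. Of all tested genes 41.4% were then called lower with those genes and 31.2% without them. In adult against P3, 6 of 7 were called lower and 0 higher as deposited, against 62.7% lower and 9.16% higher among tested genes at large, and 4 were called lower under median-of-ratios scaling and 5 under each of the other 3 scalings. Of all tested genes 22.8% were then called lower under median of ratios, 25.3% when quantile normalized, 50% at equal RPKM sums and 38.8% at equal sums without the 100 highest genes. Anxa6 turned positive under median-of-ratios scaling alone, and Anxa11 under 3 of the 4 other scalings. Both comparisons use the same 7 adult libraries. Every adult library lay below every neonatal one for 6 annexins (all but Anxa11) in each comparison, and for 0 in the other direction. Over the tested genes that held for 65.1% (4.86% in the other direction) against P1 and for 64.3% (7.99% in the other direction) against P3. The median annexin difference was -2.37 against P1 and -2.63 against P3. In adult against P1, 6 of the 7 annexins lay below the median gene, and in adult against P3, 5 did.

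**Figure D1:**
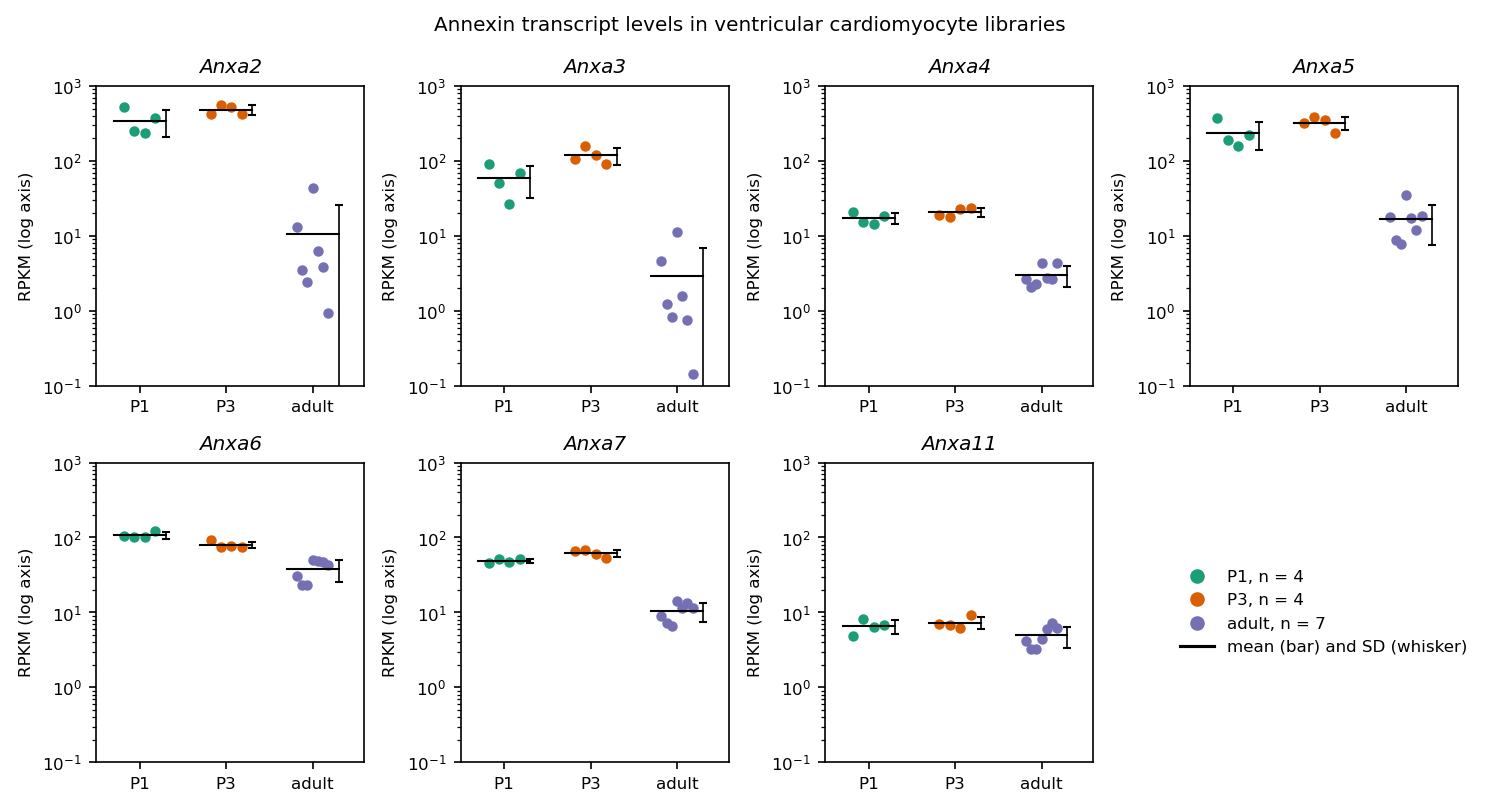
RPKM of each annexin (log axis) in every P1, P3 and adult library, with points for libraries, bars for group means and whiskers for SD (n = 4, 4 and 7), whose lower ends leave the axis for adult Anxa2 and Anxa3. Adult points lie below all neonatal points for the annexins except Anxa11, and they spread widely for Anxa2 and Anxa3, from 0.933 to 43.4 RPKM and from 0.146 to 11.2 RPKM.

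Anxa2 encodes the annexin that joins S100A10 into a surface complex known for binding plasminogen. It stood at 524, 250.1, 236 and 369 RPKM in P1 replicates 1 to 4 and at 423, 558, 528 and 426 RPKM in P3 replicates 1 to 4. In the adult libraries it had a lowest value of 0.933, a median of 3.90 and a highest value of 43.4 RPKM. No adult library reached a neonatal one. Means were 10.5 ± 15.02 RPKM in adults (SD, n = 7), against 345 ± 133 RPKM at P1 and 484 ± 69.5 RPKM at P3 (SD, n = 4 each). The log2 difference was -5.75 in adult against P1 (SE 0.61, limma adjusted p = 8.77e-08) and -6.30 in adult against P3 (SE 0.61, limma adjusted p = 1.86e-08). Relative to the median gene these differences were -4.39 and -4.83. Ranked by RPKM within each library, Anxa2 had a median percentile of 98.4 at P1 and 99.4 at P3 and of 63.4 in adults.

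Anxa3, an annexin studied mostly in neutrophils and in migrating endothelial cells, was the annexin whose pattern came nearest to that of Anxa2. It measured 91.0, 50.7, 26.7 and 68.7 RPKM in P1 replicates 1 to 4 and 106, 159, 119 and 90.7 RPKM in P3 replicates 1 to 4. Adult libraries ran from 0.146 RPKM over a median of 1.24 RPKM to 11.2 RPKM, all below the neonatal ones. In limma it differed by -4.64 (log2) in adult against P1 (SE 0.56, limma adjusted p = 3.93e-07) and -5.74 in adult against P3 (SE 0.56, limma adjusted p = 1.88e-08). The lowest adult value rested on 4 recovered reads and the highest on 112, so counting error alone is wide at the low end.

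Anxa4, known from secretory epithelia, was the least abundant of the called annexins in neonatal libraries. P1 replicates 1 to 4 had 21.2, 15.5, 14.3 and 18.5 RPKM, and P3 replicates 1 to 4 had 18.8, 18.1, 23.2 and 23.7 RPKM. The adult libraries had 2.08 RPKM at the lowest, 2.69 RPKM at the median and 4.41 RPKM at the highest, with no overlap with either neonatal age. The log2 difference was -2.37 in adult against P1 (SE 0.20, limma adjusted p = 6.25e-09), and it missed the threshold at -0.95 after both quantile normalization and median-of-ratios scaling. Against P3 it was -2.63 (SE 0.20, limma adjusted p = 9.48e-10).

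Anxa5, whose protein binds phosphatidylserine exposed on cell surfaces and covers torn membranes with a lattice, ranked next to the top annexin by mean RPKM at each age. It measured 376, 191, 156 and 221 RPKM in P1 replicates 1 to 4, and 325, 385, 350 and 233 RPKM in P3 replicates 1 to 4. Adult libraries ran from 7.70 RPKM over a median of 17.4 RPKM to 35.2 RPKM, again without overlap. Means were 16.7 ± 9.27 RPKM in adults (SD, n = 7), against 236 ± 97.0 RPKM at P1 and 323 ± 64.9 RPKM at P3 (SD, n = 4 each). On the log2 scale it differed by -3.86 in adult against P1 (SE 0.34, limma adjusted p = 8.36e-09) and -4.37 in adult against P3 (SE 0.34, limma adjusted p = 1.04e-09).

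Anxa6, the annexin with a duplicated core that caps injured muscle membranes, differed least among the called genes and was the leading annexin of the adult libraries. P1 replicates 1 to 4 had 106, 101, 100.2 and 123 RPKM, and P3 replicates 1 to 4 had 91.2, 75.5, 77.98 and 75.4 RPKM. Adult replicates 1 to 7 had 30.3, 23.1, 22.9, 49.3, 48.9, 47.2 and 43.3 RPKM, all below the neonatal values. Its log2 difference reached -1.56 in adult against P1 (SE 0.24, limma adjusted p = 6.62e-06) and -1.13 in adult against P3 (SE 0.24, limma adjusted p = 0.000202). Both lie close to the shift of the median gene, from which Anxa6 differed by -0.19 and 0.35. Under the 4 other scalings it was -0.02 to -0.86 in adult against P1 and -0.57 to 0.48 in adult against P3, past the threshold in none of them. Its rank within the library hardly moved, with median percentiles of 95.01 at P1, 93.8 at P3 and 93.1 in adults. Against adult replicates 5 to 7 alone, its difference from P3 was -0.77 and no longer called.

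Anxa7 encodes synexin, which fuses membranes and binds sorcin and the calcium sensor ALG-2. It measured 45.2, 51.3, 47.3 and 52.3 RPKM in P1 replicates 1 to 4 and 67.0, 67.1, 60.8 and 53.2 RPKM in P3 replicates 1 to 4. Adult libraries ran from 6.68 RPKM over a median of 11.3 RPKM to 14.3 RPKM, below all neonatal libraries. The log2 difference was -2.22 in adult against P1 (SE 0.21, limma adjusted p = 1.65e-08) and -2.55 in adult against P3 (SE 0.21, limma adjusted p = 1.75e-09). With quantile normalization it was -0.94 against P1, and with median-of-ratios scaling -0.71 against P1 and -0.96 against P3, each past the adjusted p but short of the fold threshold.

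Anxa11, which also binds ALG-2, was the annexin that passed no call as deposited. P1 replicates 1 to 4 had 4.93, 8.24, 6.47 and 6.71 RPKM, P3 replicates 1 to 4 had 6.94, 6.79, 6.14 and 9.20 RPKM, and the adult libraries had 3.24 RPKM at the lowest, 4.39 RPKM at the median and 7.14 RPKM at the highest. The 3 ages overlapped. It differed by a log2 value of -0.41 in adult against P1 (SE 0.22, limma adjusted p = 0.0864) and -0.55 in adult against P3 (SE 0.22, limma adjusted p = 0.025, under the fold threshold). Relative to the median gene it stood higher in adults, by 0.95 against P1 and by 0.93 against P3. After quantile normalization it was called higher in adult against P1 (1.03, limma adjusted p = 3.21e-05), and likewise after median-of-ratios scaling (1.00, limma adjusted p = 5.88e-05). Over all alternatives its limma adjusted p in that comparison ran from 3.21e-05 to 0.971. Its median percentile within the library was 40.7 at P1, 40.7 at P3 and 62.3 in adults.

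**Figure D2:**
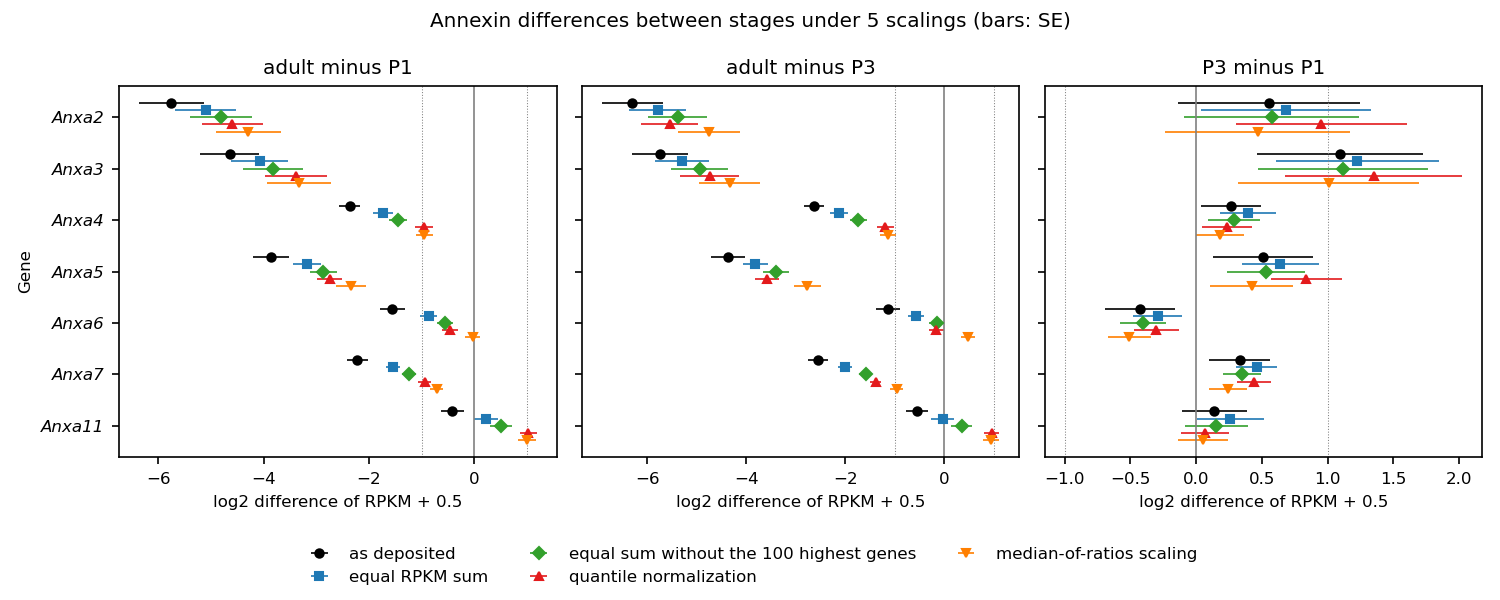
Log2 differences of RPKM + 0.5 with SE bars for each annexin in adult minus P1, adult minus P3 and P3 minus P1, for the values as deposited (black circles) and under 4 other scalings, with dotted lines at a log2 difference of 1 in either direction. Anxa2, Anxa3 and Anxa5 stay left of -1 in both adult comparisons under every scaling plotted, while Anxa11 crosses 0 in both and Anxa6 crosses it in adult minus P3.

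The order of the annexins by RPKM differed between ages. At P1 the order of means was Anxa2, Anxa5, Anxa6, Anxa3, Anxa7, Anxa4 and Anxa11. Anxa2 was above Anxa5 in 4 of 4 P1 libraries although their ranges overlapped, and Anxa3 was above Anxa7 in only 2 of 4. At P3 the order was Anxa2, Anxa5, Anxa3, Anxa6, Anxa7, Anxa4 and Anxa11, and each neighbour pair kept its order in 4 of 4 libraries. In adults Anxa6 came first, above Anxa5 in 7 of 7 libraries, followed by Anxa5, Anxa2, Anxa7, Anxa11, Anxa4 and Anxa3. The ranges of all neighbours overlapped in adults. Within libraries, Anxa7 was above Anxa11 in 7 of 7, Anxa5 above Anxa2 and Anxa11 above Anxa4 in 6 of 7 each, and Anxa4 above Anxa3 in 5 of 7. Anxa2 exceeded Anxa7 in only 2 of 7, so the order of means and the order within most libraries differ there.

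Shares of the summed annexin RPKM stay the same when a library is multiplied by 1 factor, though not under quantile normalization. Anxa6 made up 13.9 ± 3.41% at P1, 7.43 ± 1.33% at P3 and 45.9 ± 8.79% in adults (SD, n = 4, 4 and 7), and its lowest adult share, 30.4%, lay above its highest neonatal share, 17.1%. Anxa2 made up 41.4 ± 3.22% at P1, 44.2 ± 2.55% at P3 and 9.67 ± 8.84% in adults, where its highest share was 26.7% and the lowest neonatal share was 37.5%. Anxa5 accounted for 28.3 ± 2.88% at P1, 29.3 ± 2.54% at P3 and 18.8 ± 3.09% in adults. Anxa7 held 6.43%, 5.70% and 12.9% at the 3 ages in the same order, and Anxa11 0.885%, 0.685% and 6.21%. Anxa3 held 6.98%, 10.7% and 2.80%, and Anxa4 2.19%, 1.96% and 3.76%. The ratio of Anxa2 to Anxa6 RPKM was 2.36 to 4.94 at P1, 4.64 to 7.39 at P3 and 0.0215 to 0.879 in adults. That of Anxa5 to Anxa6 was 1.56 to 3.55, 3.09 to 5.10 and 0.252 to 0.714. No test was run on the shares or ratios.

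**Figure D3:**
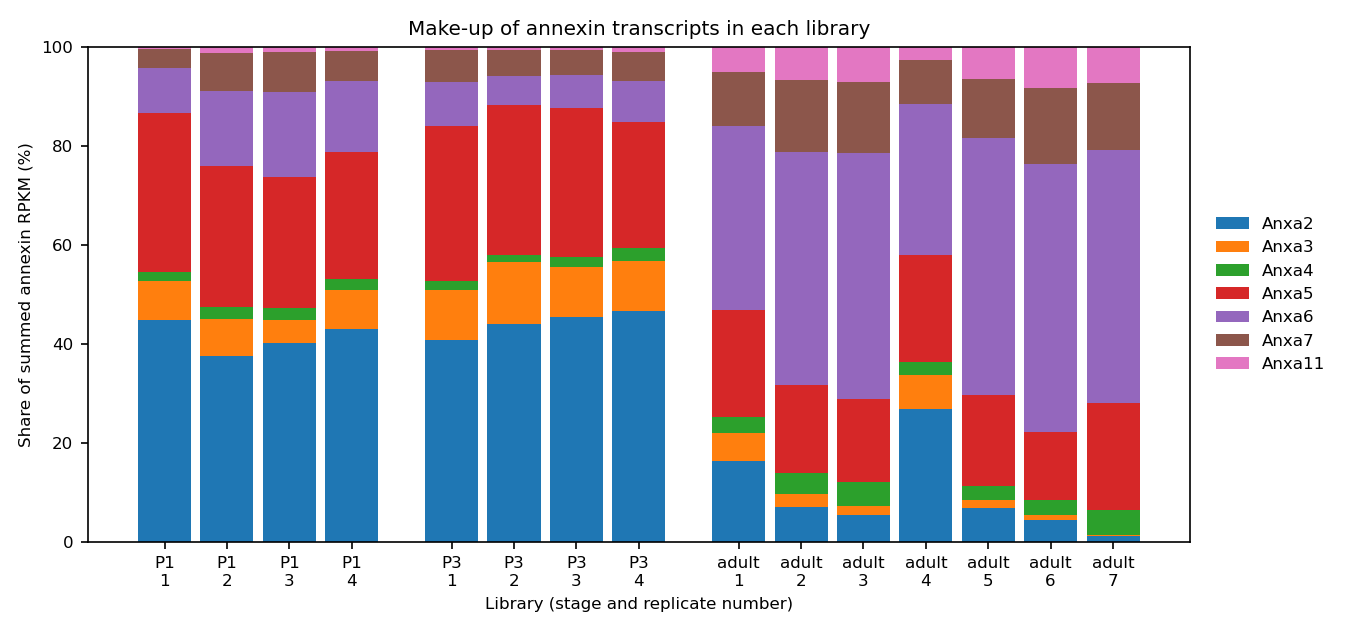
Share of each annexin in the summed RPKM of the 7 annexins (percent, stacked bars), 1 bar for each library, labelled by age and replicate number. Anxa2 fills 1.10% to 26.7% of the adult bars and 37.5% to 46.7% of the neonatal bars, while Anxa6 fills 30.4% to 54.2% of the adult and 5.95% to 17.1% of the neonatal bars.

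Between the neonatal ages no annexin was called, with 0 of 7 higher and 0 lower by limma in P3 against P1 and 0 at an unadjusted p under 0.05, against 1.4% higher and 5.31% lower among the tested genes at large. The log2 differences were 0.55 for Anxa2 (SE 0.69, limma adjusted p = 0.622), 1.10 for Anxa3 (SE 0.63, limma adjusted p = 0.269), 0.27 for Anxa4 and 0.51 for Anxa5. They were -0.42 for Anxa6, 0.33 for Anxa7 and 0.14 for Anxa11. The SE values come from 1 spread shared by all 15 libraries, so they include the spread among adults. Without adult replicates 1 and 4 the differences stayed the same and neither gene was called. The SE then fell to 0.38 for Anxa2 (limma adjusted p = 0.335) and to 0.37 for Anxa3 (limma adjusted p = 0.0597). Anxa7 was nevertheless higher in 4 of 4 P3 libraries (53.2 to 67.1 RPKM) than in any P1 library (45.2 to 52.3 RPKM), a separation that 10.7% of all genes showed in that direction. Anxa6 was lower in 4 of 4 P3 libraries (75.4 to 91.2 RPKM) than in any P1 library (100.2 to 123 RPKM), as were 2.53% of all genes. With quantile normalization Anxa5 (0.84, limma adjusted p = 0.0465) and Anxa7 (0.44, limma adjusted p = 0.032), and with median-of-ratios scaling Anxa6 (-0.51, limma adjusted p = 0.049), passed the adjusted p but not the fold threshold. With each library left out in turn from the values as deposited, the limma adjusted p reached 0.653 for Anxa5, 0.499 for Anxa6 and 0.541 for Anxa7. With P3 replicate 1 as the single P3 library, which was the P3 library richest in cardiomyocyte markers and is then assumed to vary like the others, the differences were 0.37 for Anxa2, 0.97 for Anxa3, 0.13 for Anxa4, 0.54 for Anxa5, -0.23 for Anxa6, 0.45 for Anxa7 and 0.09 for Anxa11. Adults set against that library in the same way gave -6.12 for Anxa2, -5.61 for Anxa3, -2.49 for Anxa4, -4.40 for Anxa5, -1.33 for Anxa6, -2.67 for Anxa7 and -0.50 for Anxa11. As the spread comes from the other groups, only the differences are given. All 4 P3 libraries, replicate 1 included (728 and 3960 RPKM), held more endothelial marker RPKM and less cardiomyocyte marker RPKM than any P1 library, and the part of this in the P3 differences was not tested.

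Among the adult libraries, Anxa2 and Anxa3 varied most, and both were highest and lowest in the libraries where endothelial and fibroblast markers were. Anxa2 had 13.3, 3.48, 2.45, 43.4, 6.36, 3.90 and 0.933 RPKM in adult replicates 1 to 7. The endothelial marker sums of those libraries were 114, 27.1, 23.6, 221, 64.4, 28.6 and 3.22 RPKM, and their fibroblast marker sums were 54.6, 9.997, 13.8, 78.3, 14.9, 6.08 and 1.13 RPKM. Replicate 4 was highest and replicate 7 lowest in all 3 series of values. Mural marker sums were 265, 209, 171, 459, 430, 421 and 346 RPKM in the same order, so replicate 4 was highest there too but replicate 7 exceeded replicates 1 to 3. Replicate 4 was also highest among adults in cardiomyocyte markers (20580 RPKM) and in the RPKM sum over all genes (280112). Anxa3 was likewise highest in replicate 4 and lowest in replicate 7. The highest adult value exceeded the lowest by 46.5 times for Anxa2 and 76.5 times for Anxa3, against 4.57 times for Anxa5 and 2.12 to 2.20 times for Anxa4, Anxa6, Anxa7 and Anxa11. In replicate 7 Anxa5 had 18.4 RPKM (543 recovered reads), above the adult median, and Anxa4 had 4.41 RPKM, the highest of the adult libraries. Anxa6 (43.3 RPKM), Anxa7 (11.5 RPKM) and Anxa11 (6.16 RPKM) in replicate 7 were at or above their adult medians.

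The falls in adults were also measured on parts of the adult set chosen after the marker values were seen. With adult replicate 7 as the single adult library, the spread comes from the other groups and that library is assumed to vary like them, so only the differences are given. Adult against P1 was then -7.84 for Anxa2, -6.40 for Anxa3, -1.85 for Anxa4, -3.57 for Anxa5, -1.30 for Anxa6, -2.04 for Anxa7 and -0.07 for Anxa11. Against P3 the same library gave -8.39 for Anxa2, -7.50 for Anxa3, -2.12 for Anxa4, -4.08 for Anxa5, -0.87 for Anxa6, -2.37 for Anxa7 and -0.21 for Anxa11. Without adult replicates 1 and 4, the adult libraries highest in endothelial and fibroblast markers, adult against P1 gave -6.56 for Anxa2, -5.38 for Anxa3, -4.15 for Anxa5 and -1.60 for Anxa6. Adult replicates 1 to 4 and 5 to 7 differ in depth and in the read step of their values. Adult against P1 was -5.16 for Anxa2 with replicates 1 to 4 alone and -6.54 with replicates 5 to 7 alone, and for Anxa11 it was -0.72 and -0.01. Fibroblast marker sums were higher in every neonatal library than in any adult one, and so were endothelial marker sums, apart from P1 replicate 3 (216 RPKM) against adult replicate 4 (221 RPKM). The part of those cells in the neonatal annexin levels was not tested.

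**Figure D4:**
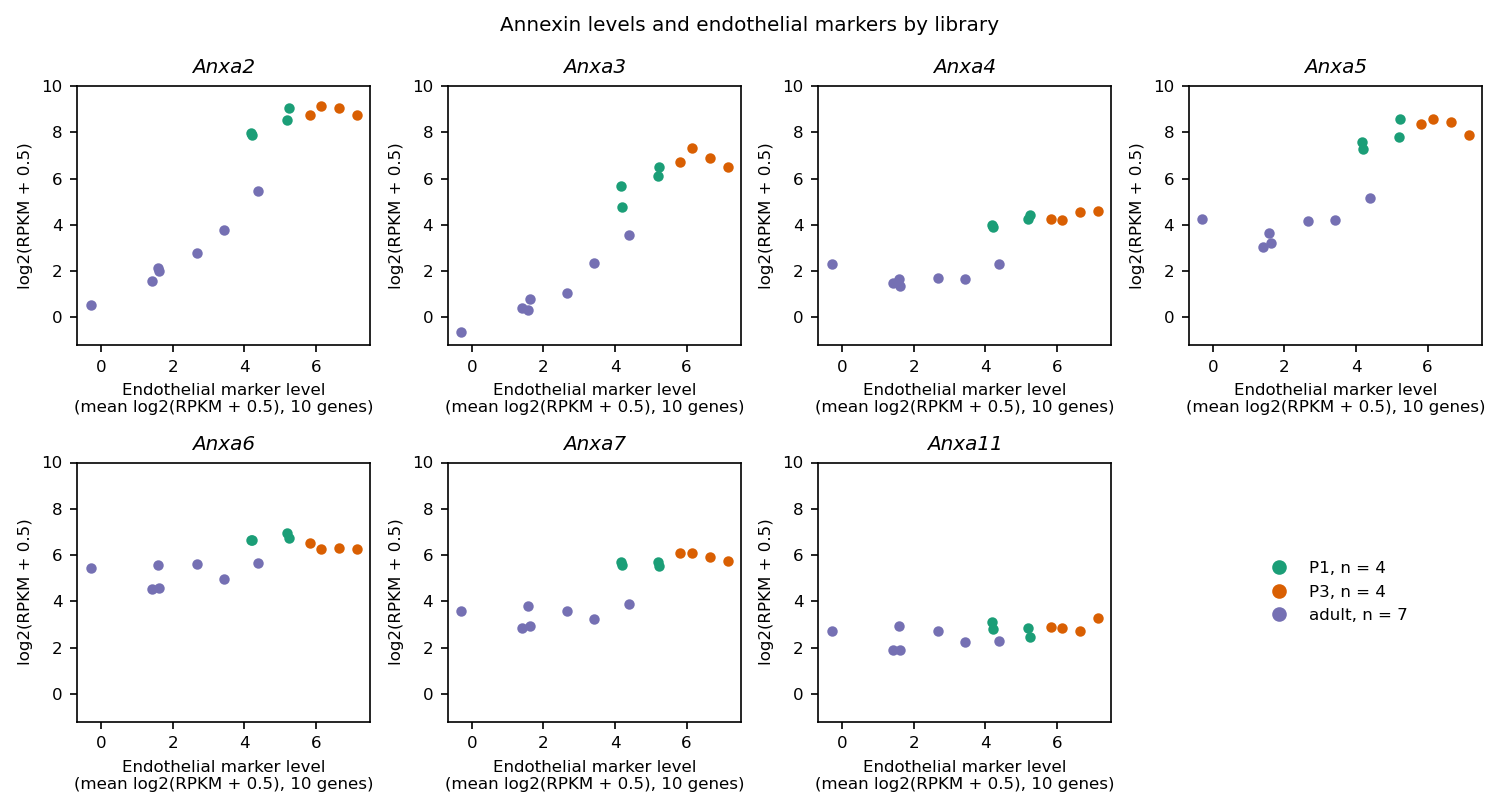
Level of each annexin, as log2(RPKM + 0.5), against the mean log2(RPKM + 0.5) of 10 endothelial markers, with 1 point for each of the 4 P1, 4 P3 and 7 adult libraries. Anxa2 and Anxa3 climb along the adult points, from 0.933 to 43.4 RPKM and from 0.146 to 11.2 RPKM, while adult Anxa4, Anxa6, Anxa7 and Anxa11 stay within 2.12 to 2.20 times.

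Within P1, replicate 1 stood out with fibroblast markers at 1408 RPKM, against 164 to 200 RPKM in the other P1 libraries. Its cardiomyocyte marker sum was the lowest of P1, at 5306 RPKM against 7101 to 11750 RPKM. Its endothelial sum, 453 RPKM, lay within the P1 range of 216 to 489 RPKM. This library had the highest P1 values of Anxa2 (524 RPKM), Anxa3 (91.0 RPKM), Anxa4 (21.2 RPKM) and Anxa5 (376 RPKM) and the lowest of Anxa7 (45.2 RPKM) and Anxa11 (4.93 RPKM). Leaving it out ended no annexin call.

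The annexins differed among themselves in how alike their patterns were over the 15 libraries. As a measure of likeness, each gene's mean over the libraries was subtracted from its log2 levels, and the root mean square difference was taken between genes. Anxa4 and Anxa7 were the most alike pair (0.28), followed by Anxa2 and Anxa3 (0.54) and by Anxa6 and Anxa11 (0.54), and Anxa2 and Anxa11 the least alike (3.00). Among 9069 other tested genes, without those whose symbols are provisional, those nearest to Anxa2 were Tmsb10 (0.20), a thymosin that binds actin monomers, Tuba1a (0.35), a tubulin, and S100a11 (0.39). Nearest to Anxa3 were Mcam (0.33), an adhesion molecule of vessel walls, Cd9 (0.37), a tetraspanin, and Csrp1 (0.41), an actin-associated LIM protein. Elp2 (0.18), Srsf2 (0.18) and Sumf1 (0.18) came closest to Anxa4, and Elovl1, a fatty acid elongase (0.20), Tkt, transketolase (0.25), and Slc3a2, an amino acid transporter chain (0.25), to Anxa5. Anxa6 was nearest to Atxn10 (0.15), Gpr108 (0.16) and Ppp1ca (0.17), Anxa7 to Ercc3 (0.13), Reps1 (0.13) and Ltv1 (0.15), and Anxa11 to Rab5b (0.12), Iqsec2 (0.15) and Ikbkg (0.16). Genes compared over these 15 libraries share each library's depth and cell mix, which differ between libraries.

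Of 8 S100 genes, which encode small calcium-binding partners, 5 were analysed, with 1 called higher and 4 lower in adult against P1 and in adult against P3. Of all tested genes 62.7% were called lower in each of these comparisons as deposited, and 4.32% (against P1) and 9.16% (against P3) higher, and the counts of this and the next lists stand beside those shares. S100a10, the partner of annexin A2, had 8.71 ± 14.1 RPKM in adults (SD, n = 7, median 3.12), against 139 ± 56.0 RPKM at P1 and 168 ± 49.1 RPKM at P3 (SD, n = 4 each). Adult replicate 4 had 40.2 RPKM and the other adult libraries 0.269 to 8.14 RPKM. Its log2 difference was -4.85 against P1 (limma adjusted p = 1.81e-06) and -5.15 against P3 (limma adjusted p = 7.04e-07). The ratio of Anxa2 to S100a10 RPKM was 2.22 to 3.03 at P1, 2.34 to 3.91 at P3 and 0.918 to 3.47 in adults, so the ranges overlapped. That overlap rested on adult replicate 7 (3.47, with S100a10 at 0.269 RPKM), since the other adult libraries had ratios of 0.918 to 1.63, below every neonatal library. S100a11, known as the partner of annexin A1, differed by -6.29 against P1 and -7.04 against P3. S100a1, the S100 protein of cardiac muscle that binds the ryanodine receptor, went the other way, at 2.05 against P1 (limma adjusted p = 0.000177) and 3.85 against P3 (limma adjusted p = 7.83e-08). It was the S100 gene called lower in P3 against P1, where P3 replicates 2 to 4 were low in cardiomyocyte markers. Of all tested genes 5.31% were called lower in that comparison.

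Membrane repair genes moved in both directions. Of 18 analysed of 20 listed, 2 were called higher and 12 lower in adult against P1, and 3 higher and 10 lower in adult against P3, against 62.7% lower among all tested genes in each comparison. The list medians were -1.25 and -1.23, close to the median gene. Trim72, the muscle repair protein MG53, had 52.6 ± 15.3 RPKM in adults (SD, n = 7), against 24.2 ± 10.1 RPKM at P1 and 7.95 ± 8.42 RPKM at P3 (SD, n = 4 each). P3 replicate 1 had 20.5 RPKM, and replicates 2 to 4, the libraries low in cardiomyocyte markers, had 5.04, 3.09 and 3.16 RPKM. Its log2 difference was 1.17 against P1 (limma adjusted p = 0.0144) and 3.03 against P3 (limma adjusted p = 1.64e-06), and the difference from P1 was not called without P1 replicate 1 (0.81) or with adult replicates 1 to 4 alone (0.93). Syt7, a calcium sensor of lysosome exocytosis, was 1.23 higher than at P1 (not called with adult replicates 1 to 4 alone, 0.91, or a pseudocount of 1, 0.94) and 1.41 higher than at P3. Its levels were 0.314 to 0.729 RPKM at P1, 0.274 to 0.560 RPKM at P3 and 1.036 to 3.095 RPKM in adults. Only adult libraries thus brought Syt7 to the RPKM of 1 needed for testing. Ehd2, a membrane-bending ATPase at caveolae, differed by -2.82 and -3.71, Capn2, the large subunit of calpain-2, by -2.44 (-0.94 and not called under median-of-ratios scaling) and -3.06, and Ahnak, the giant scaffold bound by annexin A2 and S100A10, by -2.63 and -2.64. Sri, sorcin, which binds annexin A7, differed by -2.51 and -2.57. Dysf, dysferlin, the repair protein that associates with annexins in muscle, was -0.92 against P1 and -0.89 against P3, short of the fold threshold, and 0.45 and 0.59 above the median gene. Against P1 it was called lower without P1 replicate 1 (-1.08), P1 replicate 3 (-1.04) or adult replicate 4 (-1.02), with adult replicates 1 to 4 alone and with the replicate block (-1.01 in both), and against P3 without P3 replicate 2. Without adult replicates 1 and 4 it was called lower in both. Its direction turned under 3 of the 4 other scalings. In P3 against P1, 3 of the 18 (Trim72, Cav3 and Ehd4) were called lower and 0 higher, against 5.31% and 1.4% of all tested genes.

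The ESCRT and ALG-2 genes, which shed damaged membrane, were all analysed. As deposited, 13 of 14 were called lower in adult against P1 and 11 of 14 in adult against P3. Of all tested genes 62.7% were called lower in each comparison. List counts under other scalings are not given here. The list had medians of -1.38 and -1.52, against -1.36 and -1.48 for the median gene. Pdcd6, which encodes ALG-2, the calcium sensor bound by annexins A7 and A11, differed by -1.65 against P1 and -1.98 against P3, and lost its call in both comparisons after quantile normalization (-0.32 and -0.67) and median-of-ratios scaling (-0.16 and -0.40). Against P1 it also lost its call at equal RPKM sums (-0.97) and without the 100 highest genes (-0.67). Pdcd6ip, ALIX, differed by -2.69 and -2.86, and Ist1 by -2.56 and -2.77. Of 12 genes of phosphatidylserine transport, 9 were analysed and 7 were called lower in each adult comparison, beside 62.7% of all tested genes. The list medians were -1.53 and -1.76, against -1.36 and -1.48 for the median gene. Ano6, the calcium-activated scramblase that exposes the lipid bound by annexin A5, had 0.871 ± 0.635 RPKM in adults (SD, n = 7), against 12.7 ± 3.70 RPKM at P1 and 26.7 ± 5.71 RPKM at P3 (SD, n = 4 each). Its log2 difference was -3.36 against P1 (limma adjusted p = 7.49e-09) and -4.42 against P3 (limma adjusted p = 1.76e-10). Plscr3 differed by -1.94 and -2.72, and against P1 it was not called after quantile normalization (-0.55) or median-of-ratios scaling (-0.64).

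Of 6 plasminogen activation genes, 2 were analysed and 2 were called lower in each adult comparison, beside 62.7% of all tested genes. Serpine2, a secreted serpin that inhibits plasminogen activators, differed by -3.97 and -4.44. Serpinb6a, an intracellular serpin, differed by -1.83 and -1.99. Its calls were lost under quantile normalization (-0.65 and -0.93) and median-of-ratios scaling (-0.31 and -0.38), and in adult against P1 also at equal RPKM sums without the 100 highest genes (-0.84). Of 4 phospholipase A2 genes, 2 were analysed. Pla2g6 differed by -1.17 and -1.21 and was called lower in both adult comparisons as deposited, but in neither under any of the 4 other scalings (-0.10 to -0.72 against P1 and -0.12 to -0.86 against P3) or with adult replicates 5 to 7 alone (-0.89 and -0.92). It also missed the fold threshold with a pseudocount of 1, and against P3 with P3 replicate 1 as the single P3 library (-0.85). Adult libraries had only 0.3015 to 0.939 RPKM of Pla2g6, so neonatal libraries alone brought it to the RPKM of 1 needed for testing. Pla2g15 differed by -0.71 (not called) and -1.17 (called), and the call was lost under all 4 other scalings (-0.78 to 0.02) and with a pseudocount of 1 (-0.93). In P3 against P1 none of the 27 analysed genes of the ESCRT, phosphatidylserine, plasminogen and phospholipase lists was called by limma. Of all tested genes 5.31% were called lower and 1.4% higher there. Endothelial and fibroblast markers were lower in adults alongside these lists, as given above, and the part of those cells in the partner differences was not tested.

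**Figure D5:**
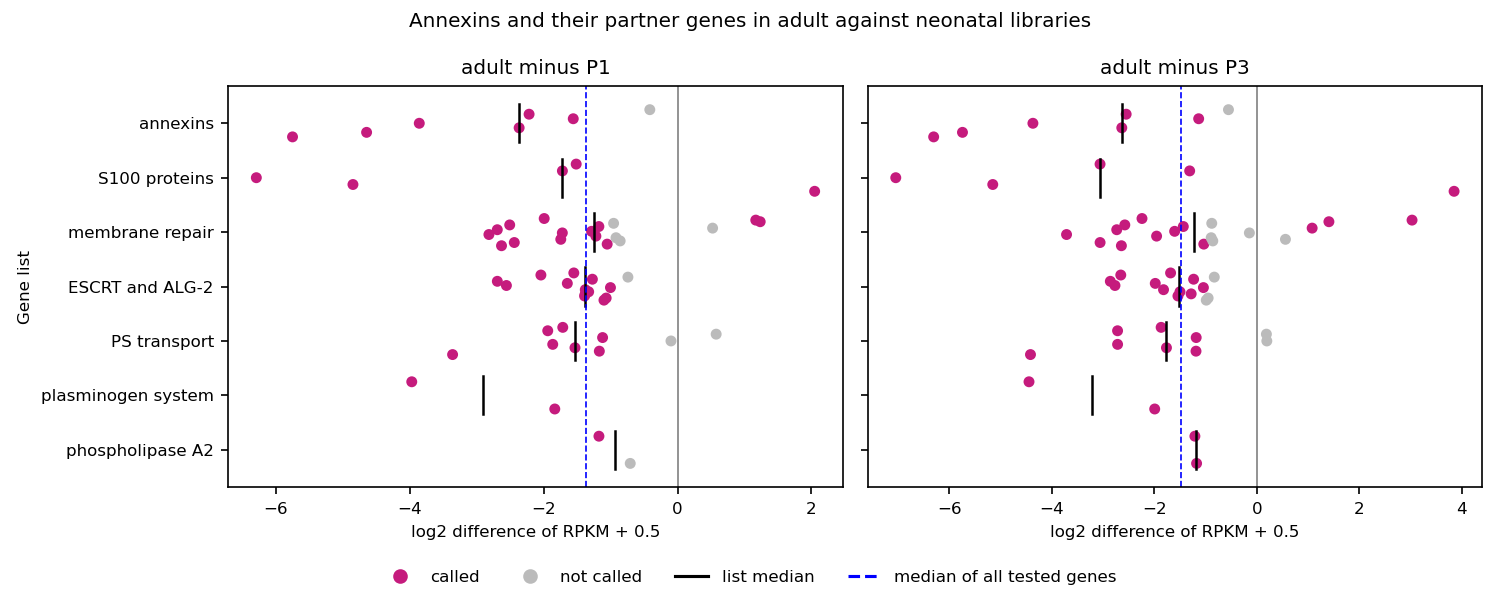
Log2 difference of RPKM + 0.5 of each annexin and of each gene of the partner lists in adult minus P1 and adult minus P3, with coloured points for called genes, grey points for genes not called, a black line for the list median and a dashed blue line for the median of all tested genes (-1.36 and -1.48). The annexin medians (-2.37 and -2.63) lie left of the dashed line as deposited, the membrane repair and ESCRT medians lie near it, and S100a1 and Trim72 lie right of 0.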

How the data were processed

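Expression was deposited by the authors as RPKM values in 1 table, with a column for each of the 15 libraries, and every column was used. Per the submitters' processing notes, HISAT2, Partek 6.6 and the mouse build mm10 were used. Which annotation, counting options and strand setting were used is not given in the sources used here. The lowest listed RPKM was 0.1. Whole reads were recovered from the steps of the RPKM values for 7746 genes (80.1%) within a relative tolerance of 3e-05, against 0% after a change of 1 percent in the values. They gave the estimated depth over 551 genes with 1 annotated transcript.

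A gene was tested where 4 or more of the 15 libraries reached an RPKM of 1 (9389 of 9666). The linear models of limma 3.58.1 (R 4.3.3) were fitted to log2(RPKM + 0.5), with a mean-variance trend and 1 coefficient for each age. All 15 libraries shared 1 estimate of the spread of a gene. Tests were two-sided and adjusted by Benjamini-Hochberg over all tested genes of a comparison. A call required an adjusted p under 0.05 and an absolute log2 difference of at least 1. The pseudocount shrinks differences of genes with low RPKM. The scripts were tested on simulated data. Whether each library is a separate animal is not in the labels. The p-values therefore rest on the spread between libraries, which may be technical. Replicate numbers were not taken to pair the libraries. The alternatives were 4 other scalings, other pseudocounts and filters, other fits, subsets of the adult libraries and each library left out in turn.

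The annexins and the lists of partner and marker genes were chosen with earlier results of these data known. Named partner genes were up to 2 called genes in each direction with the largest absolute differences in adult against P3, plus known annexin partners. From the list of plasminogen activation genes 1 gene is not reported here. Similar genes were the 3 with the smallest root mean square difference over the 15 libraries after centring each gene. Sequences of promoters come from RefSeq (GRCm38.p6) and gene positions from GENCODE for mm10.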

Additional observations from a re-analysis of the deposited data

How the results depend on the processing

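Leaving out each library in turn changed no annexin call in any of the 3 comparisons (315 values). Scaling between libraries did change calls. In adult against P1, quantile normalization gave 3 annexins lower and 1 higher, and median-of-ratios scaling 3 lower and 1 higher, against 6 and 0 as deposited. Equal RPKM sums, with or without the 100 highest genes, gave 5 lower and 0 higher. In adult against P1, Anxa11 was 1.03 (quantile), 1.00 (median of ratios), 0.23 (equal RPKM sum) and 0.51 (equal sum without the 100 highest genes). In adult against P3, Anxa11 was 0.96 (quantile), 0.95 (median of ratios) and 0.36 (without the 100 highest), and Anxa6 was 0.48 (median of ratios). Dysf turned to 0.50, 0.50 and 0.0079 in adult against P1 and to 0.60, 0.61 and 0.015 in adult against P3 under quantile, median-of-ratios and the scaling without the 100 highest genes. Pla2g15 turned to 0.45 and 0.36 in adult against P1 and to 0.0247 and 0.0201 in adult against P3 under the first pair of these. The scaling also set the split of all tested genes. In adult against P1, 4.32% were higher and 62.7% lower as deposited, 17.9% and 17.8% when quantile normalized, 19.8% and 16.6% under median of ratios, 9.19% and 41.4% at equal sums, and 12.3% and 31.2% without the 100 highest genes. In adult against P3, 9.16% and 62.7% became 23.1% and 25.3%, 24.9% and 22.8%, 13.2% and 50%, and 17.2% and 38.8% in the same order. The cause of these differences was not tested.

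With the replicate number as a block, 6 annexins were called lower in adult against P1 and 6 in adult against P3, and 0 in P3 against P1. Of all tested genes the block called 66.5% lower and 3.64% higher in adult against P1, and 65.4% and 8.25% in adult against P3. In P3 against P1 it called 1.14% lower and 0.809% higher. Adult replicates 5 to 7 have no partner of the same number, so the blocked adult values equal those of adult replicates 1 to 4, such as -5.16 for Anxa2 against P1. The deviations of same-numbered libraries correlated between -0.51 and 0.37, so not every library correlated best with its own number. Over all tested genes in P3 against P1, the calls were 131 higher and 499 lower as deposited, 76 and 107 with the block, and 106 and 86 with only the P1 and P3 libraries in the fit. They ranged from 15 to 300 higher and from 60 to 889 lower as each library was left out, lowest without P3 replicate 3 and highest without P3 replicate 1. Depth limits Anxa3 most, at 4 to 112 recovered reads in adults.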
